A study of Apis mellifera with 6 samples.

Results

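Ovaries of queens were compared with ovaries of queen-right workers of the honeybee Apis mellifera across all gene entries measured by RNA-seq. The comparison takes 4 of the 6 libraries of the series, chosen by their sample labels: 2 libraries from pools of queen ovaries and 2 from pools of queen-right worker ovaries. The queens were young, about 12 months old by the labels, and headed colonies in which they laid eggs. The queen-right workers came from standard hives with a laying queen, and their ovaries had been given a score of 0 for activity by eye. The remaining 2 libraries are pools of queen-less worker ovaries with a score of 3, dissected 2 to 4 weeks after a hive had been made queen-less, and their values are set beside the others without a test. All bees were female, from the same supplier, kept at several sites around Dunedin in New Zealand, and were chilled before dissection. The labels give neither the number of bees in a pool nor an ovary score for queens, and whether the 2 pools of a group came from separate colonies is not said, so p-values measure the spread between these pools. Caste and egg laying both differ between the groups, the age of the workers is not given, and the parts of caste, age and egg laying cannot be told apart.

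A honeybee ovary is a bundle of ovarioles, tubes in which germ cells divide into clusters of nurse cells and an oocyte and are wrapped by somatic follicle cells. The nurse cells supply the oocyte with RNA and protein, the oocyte takes up yolk proteins made mainly in the fat body, and the follicle cells lay down the eggshell. Queens have many ovarioles and produce eggs continuously, whereas workers have few, and the presence of the queen and her mandibular pheromone keeps them at rest. The design therefore asks which genes differ between a laying and a resting ovary of different castes.

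The values are the authors' RPKM, reads per kilobase of gene model and library size in mapped reads. For the fold changes RPKM was scaled with the authors' factor for each library. The factors were 1.01 in both queen libraries and 0.898 and 0.856 in the queen-right worker libraries. RPKM values and sums printed below are without these factors, so small differences between groups need not match the fold changes. Differences are log2 fold changes of RPKM + 1, queen minus queen-right worker, which understate the change of genes with low RPKM. Each fold change carries its standard error (SE) and the p-value of limma, adjusted by Benjamini-Hochberg over all entries tested, with 0.05 as the threshold for a call, and a value given after "higher at" or "lower at" is such a fold change. No read totals were used, and depth could be compared only between libraries, from the size of the steps in low RPKM values. By this estimate the queen libraries held 98.6% and 98.1% of the reads of queen-right worker replicate 1, and queen-right worker replicate 2 held 101.7%. Only ratios close to equal depth were searched, so a large difference in depth could not have been found. An exact two-sided permutation test on 2 and 2 libraries has a smallest possible p of 0.333, which leaves the calls to the variance that limma pools over genes. The 2 queen libraries correlated across genes with r = 0.988 and the 2 queen-right worker libraries with r = 0.976. The 13 genes of the mitochondrial genome were listed at 0 in every library, so a value of 0 is given only as listed.

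Most of the ovary transcriptome differed between queens and queen-right workers. Of 11169 entries 8778 passed the filter of at least 1 RPKM in at least 2 libraries, and 6304 of them (71.8%) were called. Queens were higher for 2744 entries (31.3%) and lower for 3560 (40.6%), and these shares are the background against which each gene list below is read. The excess of lower entries depends on the setting. Queens were higher for 3026 and lower for 3011 entries after quantile normalization, and for 3207 and 3062 with the trend on gene model length removed. With at least 1 RPKM required in every library they were higher for 2628 and lower for 2635 entries. Changes of at least 1 on the log2 scale accounted for 3871 calls (44.1%), 1559 higher (17.8%) and 2312 lower (26.3%), changes of at least 2 for 471 and 782, and changes of at least 4 for 73 and 134. The median log2 fold change of all entries was −0.19. It moved to −0.39 in RPKM without the authors' factors and to −0.01 after quantile normalization. After correcting each library for the start-to-end length of gene models it was 0.01, so the direction of small fold changes depends on the scaling. The 2 queen libraries did not overlap with the 2 queen-right worker libraries for 7629 entries (86.9%). Genes are named below by level, size of change and place in a gene list, and further list members were picked after their values were seen.

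**Figure D1:**
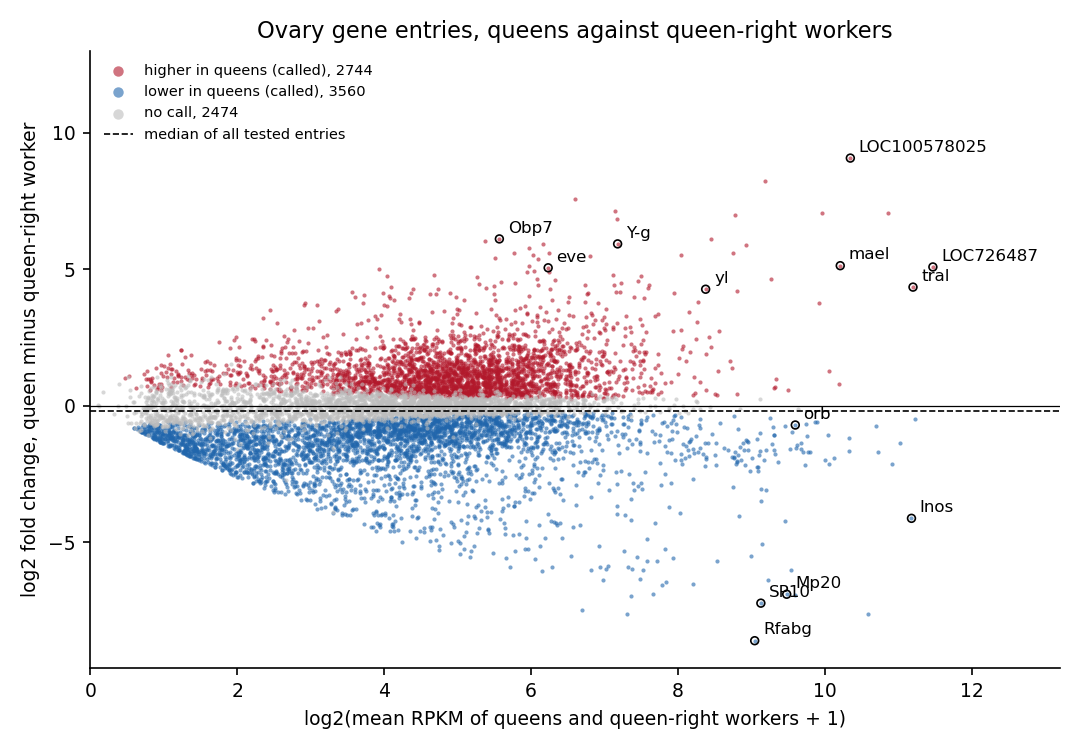
Log2 fold change (queen minus queen-right worker) of the 8778 tested entries against log2 of the mean RPKM of both groups + 1, each point being an entry and the dashed line the median of all entries (−0.19). LOC100578025 lies highest at 9.07 and Rfabg lowest at −8.61, and mael, tral and LOC726487 join a high level to rises of 4.34 to 5.13.

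The largest rises in queens were of 3 genes for which the files give no function. LOC100578025 had 2542 and 2657 RPKM in queens, 2498 and 1915 in queen-less workers and 8.49 and 2.26 in queen-right workers, a log2 fold change of 9.07 (SE 0.44, adjusted p = 3.69e-06). LOC100577698 had 1309 and 1014 RPKM in queens, 1475 and 1251 in queen-less workers and 2.36 and 4.72 in queen-right workers (log2 fold change 8.24). For LOC100578107 queens had 198 and 186 RPKM and queen-less workers 160.1 and 132, while it was listed at 0 in queen-right worker replicate 1 and at 0.34 RPKM in replicate 2. All of these genes were scarce in queen-right workers and abundant in both other groups, and LOC100578025 and LOC100578107 both overlap the gene model of LOC100578055, so reads of these models may have been split by the counting. Among genes with a name, the 6 largest rises at 10 RPKM or more were those of Obp7, Y-g, CYP6AS17, mael, eve and kinesin-8, which belong to 6 different lists described below.

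The largest falls were of named genes of several kinds and of unnamed entries. Rfabg, the precursor of the lipid carrier lipophorin, had 1.97 and 0.85 RPKM in queens, 10.5 and 9.22 in queen-less workers and 1160.2 and 947 in queen-right workers (log2 fold change −8.61, SE 0.23, adjusted p = 4.47e-07). LOC100576655, whose gene model overlaps that of Rfabg, had 0.59 and 0.22 RPKM in queens and 299 and 327 in queen-right workers (log2 fold change −7.62). LOC408650 had 13.8 and 11.3 RPKM in queens and 2706 and 3444 in queen-right workers (log2 fold change −7.62), where it was among the 5 most abundant genes. SP10 had 5 and 5.89 RPKM in queens and 1214 and 1012 in queen-right workers (log2 fold change −7.23). In each of these genes both queen-right worker libraries lay far above both queen libraries. Melt, the venom peptide melittin, had 1.99 and 1.5 RPKM in queens, 59.4 and 2938 in queen-less workers and 254 and 552 in queen-right workers. Its fold change of −6.90 has an SE of 1.49, and the 2 queen-less worker libraries, which enter the same fit, lay far apart.

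No gene was among the 5 most abundant of both groups. In queens they were LOC726487 (5398 and 5569 RPKM, against 266 and 128 in queen-right workers), tral, LOC100578903, LOC100578025 and mael. In queen-right workers they were Inos (229.8 and 209 RPKM in queens, against 4038 and 4806 in queen-right workers), LOC503505, LOC551968, LOC408650 and Hsc70-4. Inos is named for inositol phosphate synthase, known from Drosophila, and its 2 queen libraries lay far below both queen-right worker libraries (log2 fold change −4.12, SE 0.13, adjusted p = 8.55e-07). Hsc70-4, a constitutive chaperone of the Hsp70 family, was at 1919 and 1729.5 RPKM in queens and 2799.6 and 3126 in queen-right workers (log2 fold change −0.50, SE 0.19, adjusted p = 0.0477), a call that is lost when either queen library is left out and under 5 of the other settings. LOC100578903 had 3421 and 3881 RPKM in queens and 104 and 8.45 in queen-right workers (log2 fold change 7.05, SE 0.93, adjusted p = 0.000322), and its gene model overlaps that of Nrx-1.

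Transcripts that mark muscle, fat body, haemocytes, trachea and cuticle were lower in queens, in the same libraries as every difference described below. Of 14 muscle genes 13 were lower, with a median log2 fold change of −4.07. Their RPKM summed to 87.7 and 58.4 in queens, 250.2 and 225 in queen-less workers and 2962 and 3639.7 in queen-right workers. Mp20, a muscle protein, had 10.9 and 7.68 RPKM in queens and 1160.4 and 1677 in queen-right workers (log2 fold change −6.90), and TpnI, the inhibitory troponin subunit, had 4.37 and 1.95 RPKM in queens and 432 and 443 in queen-right workers (log2 fold change −6.58). Ovarioles carry a muscle sheath, so muscle transcripts are not foreign to the tissue. Mhc1, a myosin heavy chain, had 20.1 and 13.8 RPKM in queens and 203 and 209 in queen-right workers, and TpnCIIa, with 25.3 and 17.98 RPKM in queens and 19.7 and 29.5 in queen-right workers, was the muscle gene without a call.

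Fat body, haemocyte and tracheal or cuticle genes showed the same direction. The fat body list is made up largely of hexamerins and Rfabg, which also stand in other lists below. Of 9 fat body genes 7 were lower in queens, summing to 251 and 249.6 RPKM in queens and 1687 and 1388 in queen-right workers, and Lsd-1, a lipid droplet protein, was higher (116 and 107 RPKM in queens, 23.7 and 24.5 in queen-right workers, log2 fold change 2.36). Of 9 haemocyte genes 8 were lower, with sums of 32.2 and 27.4 RPKM in queens and 451 and 642 in queen-right workers. The list median was −2.42, and −1.94 over the 6 genes tested without queen-right worker replicate 2. NimC2, a Nimrod receptor, was at 0.15 and 0.07 RPKM in queens, 0.43 and 0.30 in queen-less workers and 17.9 and 20.7 in queen-right workers. The defining clotting gene Hml was low in both groups (0.70 and 0.74 RPKM in queens, 3.38 and 3.80 in queen-right workers), and its call is lost after quantile normalization. Of 36 tracheal and cuticle genes 23 could be tested and 18 were lower, while 8 were listed at 0 in both queen libraries and none in both queen-right worker libraries. Cpap3-d, a cuticle protein, had 1.69 and 1.53 RPKM in queens and 232 and 264 in queen-right workers (log2 fold change −6.37), and Apd-2 was listed at 0 and 0.37 RPKM in queens and at 52.8 and 50.6 in queen-right workers. Genes that passed the filter through queen-right workers alone could hardly come out higher in queens. With at least 1 RPKM required in every library, 7 of 8 muscle, 3 of 4 haemocyte and 10 of 13 tracheal and cuticle genes were lower. Of the 5 fat body genes then tested 3 were lower and 1 higher, with a median of −0.50. Nerve genes were less one-sided, with 5 lower (Gad1, which makes the transmitter GABA, at −2.01) and 2 higher (cpx and Nrx-1) of 10. The gene model of Nrx-1 overlaps that of LOC100578903, which was abundant in queens, and reads of the overlapping models cannot be told apart. After quantile normalization 1 nerve gene was lower and 3 were higher, and without queen-right worker replicate 1, 3 were lower and 3 higher. In bulk samples fewer cells of a type cannot be told apart from less RNA per cell, and the part that these tissues have in the other results was not tested.

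**Figure D2:**
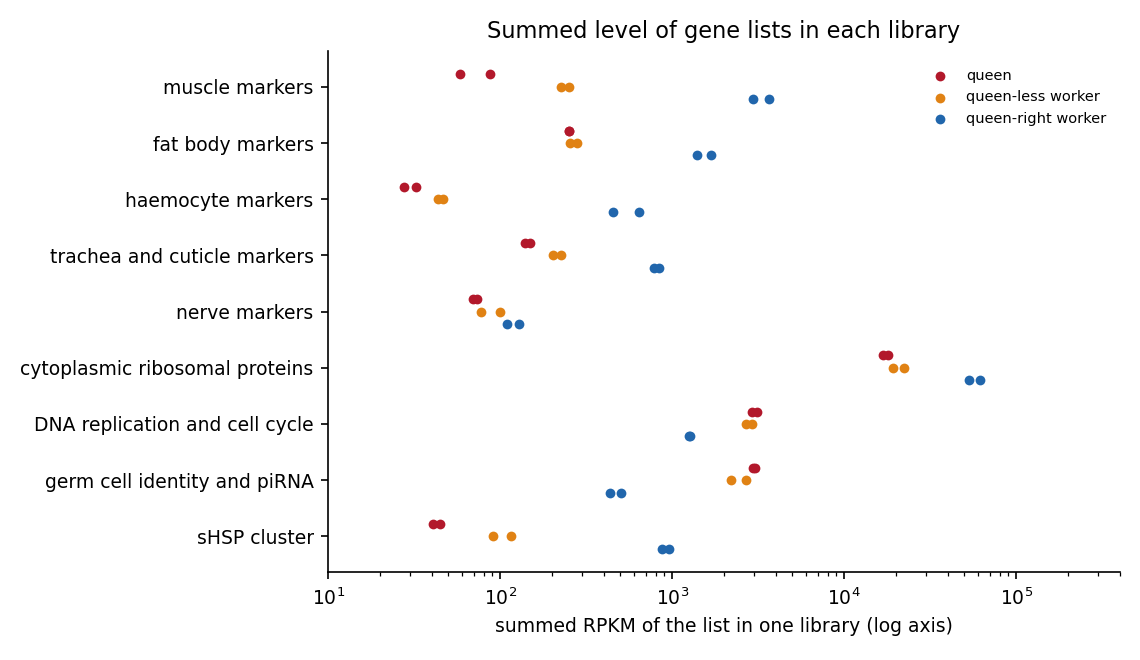
Summed RPKM of the 5 marker lists, 3 other gene lists and the 7 genes of the small heat shock protein cluster in each library (log axis), with queens in red, queen-less workers in orange and queen-right workers in blue. Muscle markers sum to 87.7 and 58.4 RPKM in queens and 2962 and 3640 RPKM in queen-right workers, while germ cell and cell cycle genes lie the other way round.

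Germ cell genes were higher in queens or not called, and the largest differences were in genes of the piRNA pathway, which silences transposons in the germline with small RNAs. Of 14 genes 9 were higher and 5 without a call, with a median log2 fold change of 0.67 against −0.19 over all entries. mael (Maelstrom), a piRNA factor, had 2309 and 2274 RPKM in queens, 1467 and 1950.2 in queen-less workers and 97.5 and 56.5 in queen-right workers. The queen libraries were nearly equal and lay far above both queen-right worker libraries (log2 fold change 5.13, SE 0.27, adjusted p = 4.51e-06). The RNA helicase vas (Vasa), the usual mark of germ cells, had 190.2 and 138 RPKM in queens, 193 and 201 in queen-less workers and 18.6 and 16.7 in queen-right workers (log2 fold change 3.33, SE 0.16, adjusted p = 3.69e-06). Its gene model overlaps that of LOC725081. Ago3, a piRNA-binding Argonaute protein, had 65.4 and 71.0 RPKM in queens, 56.7 and 53.6 in queen-less workers and 8.07 and 10.9 in queen-right workers (log2 fold change 2.93, SE 0.14, adjusted p = 3.1e-06). The germline transcription factor ovo was also higher (45.6 and 43.4 RPKM in queens, 19.3 and 14.04 in queen-right workers, log2 fold change 1.58), as were csul (Capsuleen), a methyltransferase of the germ plasm in Drosophila, and gcl (Germ cell-less), at 0.95 and 0.87.

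Other germ cell genes passed no test. nanos, a translational repressor that maintains germ cells, had 28.1 and 22.6 RPKM in queens and 21.6 and 27.9 in queen-right workers, overlapping ranges with a log2 fold change of 0.24 (95% interval −0.21 to 0.68). The helicase spn-E, of the same pathway as mael, had 28.2 and 35.1 RPKM in queens and 29.2 and 41.4 in queen-right workers (95% interval −0.34 to 0.46), and its sign changes with the scaling. zuc, the nuclease that makes piRNA ends, had 19.2 and 12.9 RPKM in queens and 28 and 24.1 in queen-right workers, without a call except under 2 settings that called it lower. Vasa, maelstrom and nanos were thus measured in every library, the resting ovaries included. nanos was called higher (0.80) once the length trend was removed.

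Most genes that handle maternal RNA were higher in queens. Of the oocyte RNA localisation and translational control list 16 of 24 genes were higher and 2 lower, with a median of 1.01. tral (Trailer hitch), a protein of maternal RNA granules, was among the 5 most abundant genes of queens at 4408 and 4492 RPKM, with 3463 and 3845 in queen-less workers and 322 and 195 in queen-right workers (log2 fold change 4.34, SE 0.26, adjusted p = 7.52e-06). BicC, an RNA-binding translational repressor, had 279 and 277 RPKM in queens, 267 and 264 in queen-less workers and 46.2 and 21.7 in queen-right workers (log2 fold change 3.29, SE 0.31, adjusted p = 5.36e-05). Dcp1, a decapping factor found in the same granules as tral, had 355 and 380.1 RPKM in queens and 49.1 and 36.9 in queen-right workers (log2 fold change 3.28). The RNA-binding proteins larp, Imp and Ge-1 followed at 2.37, 2.31 and 2.03. The Y-box protein yps, which packages stored RNA, was abundant in both ovaries, at 1447 and 1421 RPKM in queens and 783 and 595 in queen-right workers (log2 fold change 1.27).

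The list also held genes that went the other way or were not called. orb, the CPEB-type translational regulator of the oocyte, was lower in queens, at 548 and 529 RPKM against 623 and 523 in queen-less workers and 963 and 1058 in queen-right workers (log2 fold change −0.71, SE 0.14, adjusted p = 0.00225). In queens orb still stood above vas, and the call is lost after quantile normalization (−0.08). mago, a core protein of the exon junction complex, was lower at −0.97. stau, which binds double-stranded RNA, had 263 and 249 RPKM in queens and 243 and 247 in queen-right workers, and egl, the partner of BicD in RNA transport, had 18.1 and 18.98 RPKM in queens and 15.2 and 20.6 in queen-right workers. Neither was called, with 95% intervals of 0.00 to 0.52 for stau and −0.10 to 0.63 for egl. BicD itself was higher (43.97 and 35.3 RPKM in queens, 22.1 and 23.9 in queen-right workers, log2 fold change 0.95).

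Kinesins, motor proteins that act on microtubules, were mostly higher in queens. Of 35 tested dynein, dynactin and kinesin genes 24 were higher and 6 lower (median log2 fold change 1.02), and of the 23 kinesins 19 were higher and 3 lower. kinesin-8 had 255 and 273 RPKM in queens, 150.4 and 234 in queen-less workers and 14.03 and 7.08 in queen-right workers (log2 fold change 4.79, SE 0.32, adjusted p = 1.1e-05). kinesin-7A had 115 and 143 RPKM in queens, 55.6 and 112 in queen-less workers and 6.61 and 3.60 in queen-right workers (log2 fold change 4.65, SE 0.36, adjusted p = 2.28e-05). kinesin-A, kinesin-14, kinesin-4B and kinesin-6A lay between 3.38 and 4.42. Several of these kinesins belong to families that work on the mitotic spindle. The transport motor Khc (kinesin heavy chain) had 66.1 and 66.4 RPKM in queens and 31.7 and 37.1 in queen-right workers (log2 fold change 1.13). kinesin-F was lower in queens, at 2.6 and 3.04 RPKM against 36.5 and 25.04 in queen-right workers (log2 fold change −2.83). The dynactin subunit Dctn1, which links dynein to its cargo, was higher (log2 fold change 1.18).

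Genes of DNA replication and cell division were higher in queens, the largest share of higher calls of any list with more than 20 tested genes. Of 47 genes 36 were higher and 3 lower, and the median was 1.103. CAP-D2, a condensin subunit that compacts chromosomes, had 88.4 and 94.9 RPKM in queens, 54.0 and 83.1 in queen-less workers and 15.2 and 10.01 in queen-right workers (log2 fold change 2.99, SE 0.25, adjusted p = 3.33e-05). Incenp, of the chromosomal passenger complex, had 196 and 212 RPKM in queens and 42.5 and 29.1 in queen-right workers (log2 fold change 2.70). The mitotic cyclin CycB3 had 113 and 144 RPKM in queens, 109.7 and 119.8 in queen-less workers and 23.6 and 20.2 in queen-right workers (log2 fold change 2.69, SE 0.15, adjusted p = 5.37e-06), and the mitotic kinase polo had 130.5 and 129 RPKM in queens and 31.2 and 39.8 in queen-right workers (log2 fold change 2.05). CycE, which drives entry into S phase, had 42.5 and 43.4 RPKM in queens and 7.99 and 8.82 in queen-right workers (log2 fold change 2.43). Of 20 replication factors 15 were higher and the others not called, led by DNApol-alpha60, a subunit of the polymerase that starts DNA strands (log2 fold change 2.66), and by dup, which loads the replicative helicase (log2 fold change 2.17).

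The 3 lower members of the list included the G1 kinase Cdk4 and its cyclin. Cdk4 had 10.5 and 11.4 RPKM in queens, 21.1 and 14.9 in queen-less workers and 41.0 and 53.4 in queen-right workers (log2 fold change −1.80, SE 0.19, adjusted p = 9.1e-05), and its partner CycD had 5.99 and 7.2 RPKM in queens and 17.9 and 15.8 in queen-right workers (log2 fold change −1.04). The third lower member was cdc2c (log2 fold change −0.68), named for the S phase kinase Cdk2 of Drosophila. The sliding clamp gene mus209 (PCNA) was not called, with 16.4 and 15.5 RPKM in queens and 18.2 and 24.2 in queen-right workers, and its gene model overlaps those of eIF-4E and LOC727269. Meiosis and recombination genes had a median of 0.18, which lay 0.37 above that of all entries. The authors' factors shift all entries alike, so this distance cannot depend on them. It was 0.59 after quantile normalization and 0.53 with the length trend removed. The list was less one-sided, with 5 genes higher and 2 lower of 13. Leaving out any 1 of the 4 libraries left 1 lower. cort, an activator of the anaphase-promoting complex in egg meiosis of Drosophila, had 29.4 and 38.9 RPKM in queens and 6.78 and 6.02 in queen-right workers (log2 fold change 2.44), and the mismatch repair gene Msh6 had 35.1 and 34.1 RPKM in queens and 7.55 and 9.09 in queen-right workers (log2 fold change 2.14). mus81, which cuts branched DNA, was lower at −0.81, a call lost after quantile normalization, and c-mos, the kinase that arrests eggs in meiosis in other animals, had 7.6 and 6.09 RPKM in queens and 5.06 and 9.35 in queen-right workers without a call.

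**Figure D3:**
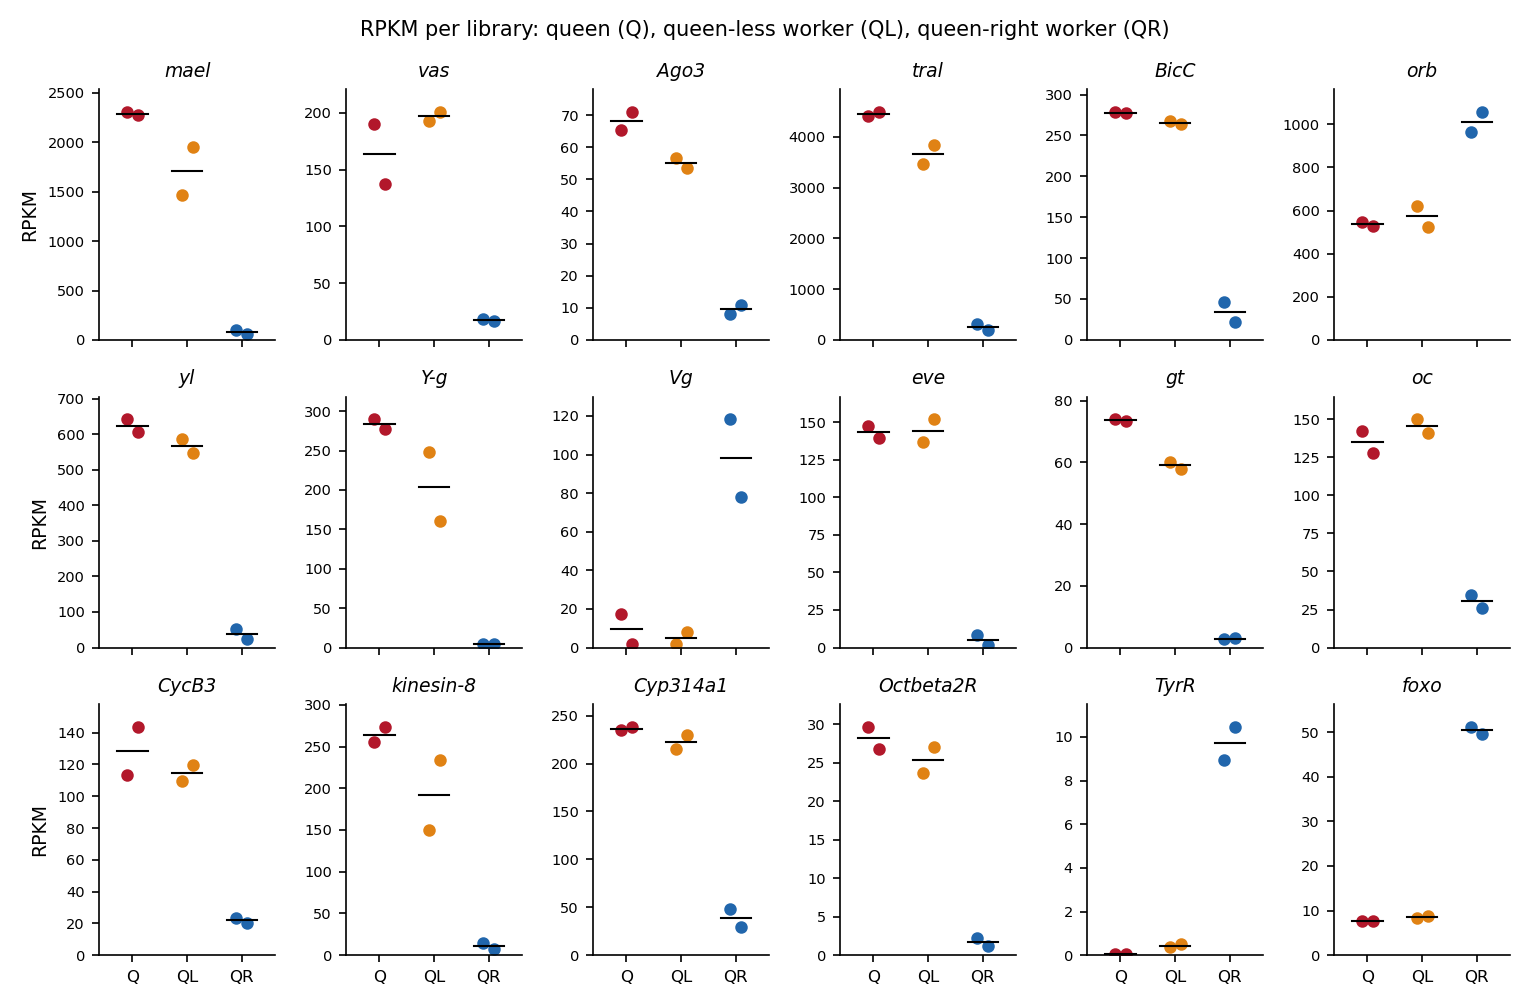
RPKM per library of 18 genes in queens (Q), queen-less workers (QL) and queen-right workers (QR), each axis starting at 0, with points for libraries and a line for the mean of the 2 libraries. For mael, vas, tral, yl and Y-g both queen libraries lie far above both queen-right worker libraries, and for orb, Vg, TyrR and foxo they lie below.

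The yolk receptor and eggshell genes were higher in queens, and the yolk protein transcript was lower. yl (Yolkless), the receptor that brings vitellogenin into the oocyte, had 642 and 608 RPKM in queens, 586 and 548 in queen-less workers and 52.0 and 25.3 in queen-right workers (log2 fold change 4.27, SE 0.30, adjusted p = 1.4e-05). Y-g and Y-g2, members of the yellow family that act in eggshell formation in Drosophila, were scarce in queen-right workers. Y-g had 289 and 278 RPKM in queens, 248 and 160.5 in queen-less workers and 4.19 and 4.56 in queen-right workers (log2 fold change 5.93, SE 0.18, adjusted p = 7.47e-07). Y-g2 had 161 and 144 RPKM in queens, 117 and 80.9 in queen-less workers and 5.86 and 6.68 in queen-right workers (log2 fold change 4.60, SE 0.17, adjusted p = 1.36e-06), and the gene models of both overlap. alpha-Adaptin and shi (dynamin), both of clathrin endocytosis, were higher at 1.76 and 1.37, whereas the adaptor subunit AP-50 was lower at −0.59.

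Vg, the yolk precursor vitellogenin, had 17.6 and 1.84 RPKM in queens, 1.59 and 8.24 in queen-less workers and 118 and 78.2 in queen-right workers. The queen libraries differed widely from each other, and both lay below the queen-right worker libraries (log2 fold change −3.54, SE 0.88, adjusted p = 0.00762). Vg and Rfabg are made mainly in the fat body, and the fat body markers above, Rfabg among them, were lower in the same libraries. Over the whole list of 14 genes 7 were higher and 5 lower. The number lower was 3 without queen replicate 2 or queen-right worker replicate 1, and 7 without the authors' factors.

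Transcripts of some embryonic patterning genes, which lay out the body axis of the embryo, were abundant in queen ovaries. eve (even-skipped), a pair-rule homeobox gene, had 147 and 139 RPKM in queens, 137 and 152 in queen-less workers and 8.58 and 1.61 in queen-right workers (log2 fold change 5.05, SE 0.52, adjusted p = 8.42e-05). gt (giant), a gap gene, had 73.9 and 73.3 RPKM in queens, 60.3 and 57.9 in queen-less workers and 2.68 and 3.06 in queen-right workers (log2 fold change 4.47, SE 0.11, adjusted p = 3.88e-07). oc, the orthodenticle homologue of head patterning, had 142 and 128 RPKM in queens, 149.96 and 141 in queen-less workers and 34.7 and 25.9 in queen-right workers (log2 fold change 2.33). The gap gene Hb (hunchback) was low in both, 9.35 and 8.12 RPKM in queens and 4.53 and 3.74 in queen-right workers (log2 fold change 1.12), and Tll (tailless) was lower still, 1.98 and 1.75 RPKM in queens and 0.49 and 0.08 in queen-right workers (log2 fold change 1.37). Of 15 tested genes 8 were higher and 5 lower. The number lower was 2 after quantile normalization or without queen-right worker replicate 2, and 3 when any of the other 3 libraries was left out in turn. Among the lower members were sog and dpp of the BMP pathway (−1.73 and −0.95), the mesoderm gene Twi (log2 fold change −1.19) and tsl, which acts in follicle cells in Drosophila (5.70 and 6.20 RPKM in queens, 9.54 and 12.8 in queen-right workers, log2 fold change −0.60). The call of tsl is lost under quantile normalization, the replicate block and without queen replicate 1, queen replicate 2 or queen-right worker replicate 2, and that of Twi under quantile normalization.

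Hox genes, which give body segments their identity, were lower or not called. Of 7 tested genes, the Hox cofactor exd included, 5 were lower, and Scr and exd were not called. The number lower was 3 without queen replicate 2 or queen-right worker replicate 1, 2 of 4 with at least 1 RPKM in every library, and 3 after quantile normalization, where Scr was called higher (0.997). Ubx had 2.62 and 2.83 RPKM in queens, 3.61 and 3.05 in queen-less workers and 35.0 and 39.4 in queen-right workers (log2 fold change −3.16, SE 0.18, adjusted p = 5.22e-06), and Abd-A had 0.78 and 0.16 RPKM in queens, 2.41 and 0.64 in queen-less workers and 10.8 and 12.3 in queen-right workers (log2 fold change −2.93). Abd-B, of the most posterior segments, was at 0.63 and 0.42 RPKM in queens and 4.90 and 1.85 in queen-right workers (log2 fold change −1.23), a call that is lost after quantile normalization and without queen replicate 2 or queen-right worker replicate 1. The muscle, tracheal and cuticle markers were lower in the same libraries, and their part in these values was not tested.

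Chromatin regulators were higher in queens. Of 14 DNA methylation and Polycomb genes 12 were higher and the others not called (median log2 fold change 1.08). Dnmt1a, a maintenance DNA methyltransferase, had 36.2 and 39.0 RPKM in queens, 26.2 and 33.2 in queen-less workers and 10.4 and 8.96 in queen-right workers (log2 fold change 2.06, SE 0.17, adjusted p = 2.71e-05), and its paralogue Dnmt1.1 was higher at 1.51. Dnmt3, the enzyme of new methylation, had 13.7 and 5.62 RPKM in queens and 13.5 and 11.5 in queen-right workers. Its queen libraries differed from each other, and without queen replicate 1 it was called lower at −0.83. E(z), the methyltransferase that sets H3K27 methylation, had 77.6 and 77.9 RPKM in queens, 64.1 and 72.4 in queen-less workers and 36.2 and 30.6 in queen-right workers (log2 fold change 1.40, SE 0.13, adjusted p = 5.89e-05). Pc (Polycomb), which reads that mark, had 73.5 and 79.2 RPKM in queens, 89.2 and 95.6 in queen-less workers and 27.3 and 22.1 in queen-right workers (log2 fold change 1.79). Sfmbt, Jarid2, Scm and Su(z)12 lay between 1.03 and 1.53.

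Ribosomal genes split by function. Of 67 cytoplasmic ribosomal proteins 66 were lower in queens, with a median of −1.65, and RPKM of the list summed to 17974 and 16769 in queens, 22395 and 19110.1 in queen-less workers and 53095 and 61179 in queen-right workers. RpL32 had 161 and 149 RPKM in queens and 728 and 889 in queen-right workers (log2 fold change −2.17, SE 0.13, adjusted p = 6.4e-06), and RpL37A had 31.7 and 30.4 RPKM in queens and 192 and 232 in queen-right workers (log2 fold change −2.53). RpL24 was the member without a call, except for a higher call (0.64) after quantile normalization (767 and 655 RPKM in queens, 859 and 903 in queen-right workers). Factors that build ribosomes went the other way, 13 of 17 higher and 1 lower. Nnp-1 had 62.4 and 68.7 RPKM in queens and 31.4 and 18.4 in queen-right workers (log2 fold change 1.61), Noc2, of the export of large subunits, was higher at 1.599, and RpI1, the large subunit of RNA polymerase I, at 1.12. NHP2, the lower member, loses its call in 10 of 17 settings and turns to 0.10 once the length trend is removed.

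Ribosomal proteins have short gene models, and fold changes varied with length. Length here is the span from start to end of the gene model, introns included, and not that of the transcript. Over 4 equal bins of tested entries by length the median log2 fold change was −0.44 in the shortest bin (106 to 2139 bp), −0.11 in the next (2140 to 3835 bp), 0.11 in the third (3836 to 8722 bp) and −0.23 in the longest. With the length trend removed, the median of the cytoplasmic ribosomal proteins was −1.37 and that of the mitochondrial ribosomal proteins 0.15. Of the 56 mitochondrial ones 5 were higher (8.9%, against 31.3% of all entries) and 21 lower (37.5%, near the 40.6% of all entries), with a median of −0.26. These counts depended on the scaling, with 18 higher and 16 lower once the length trend was removed, 2 and 34 without the authors' factors and 3 and 31 after quantile normalization. The number higher was 2 without queen replicate 1, 3 without queen-right worker replicate 2 and 8 without queen-right worker replicate 1. mRpL44 was not called (it was called higher, at 0.34, with the length trend removed), at 27.5 and 28.2 RPKM in queens and 32.5 and 33.1 in queen-right workers (95% interval −0.28 to 0.22).

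**Figure D4:**
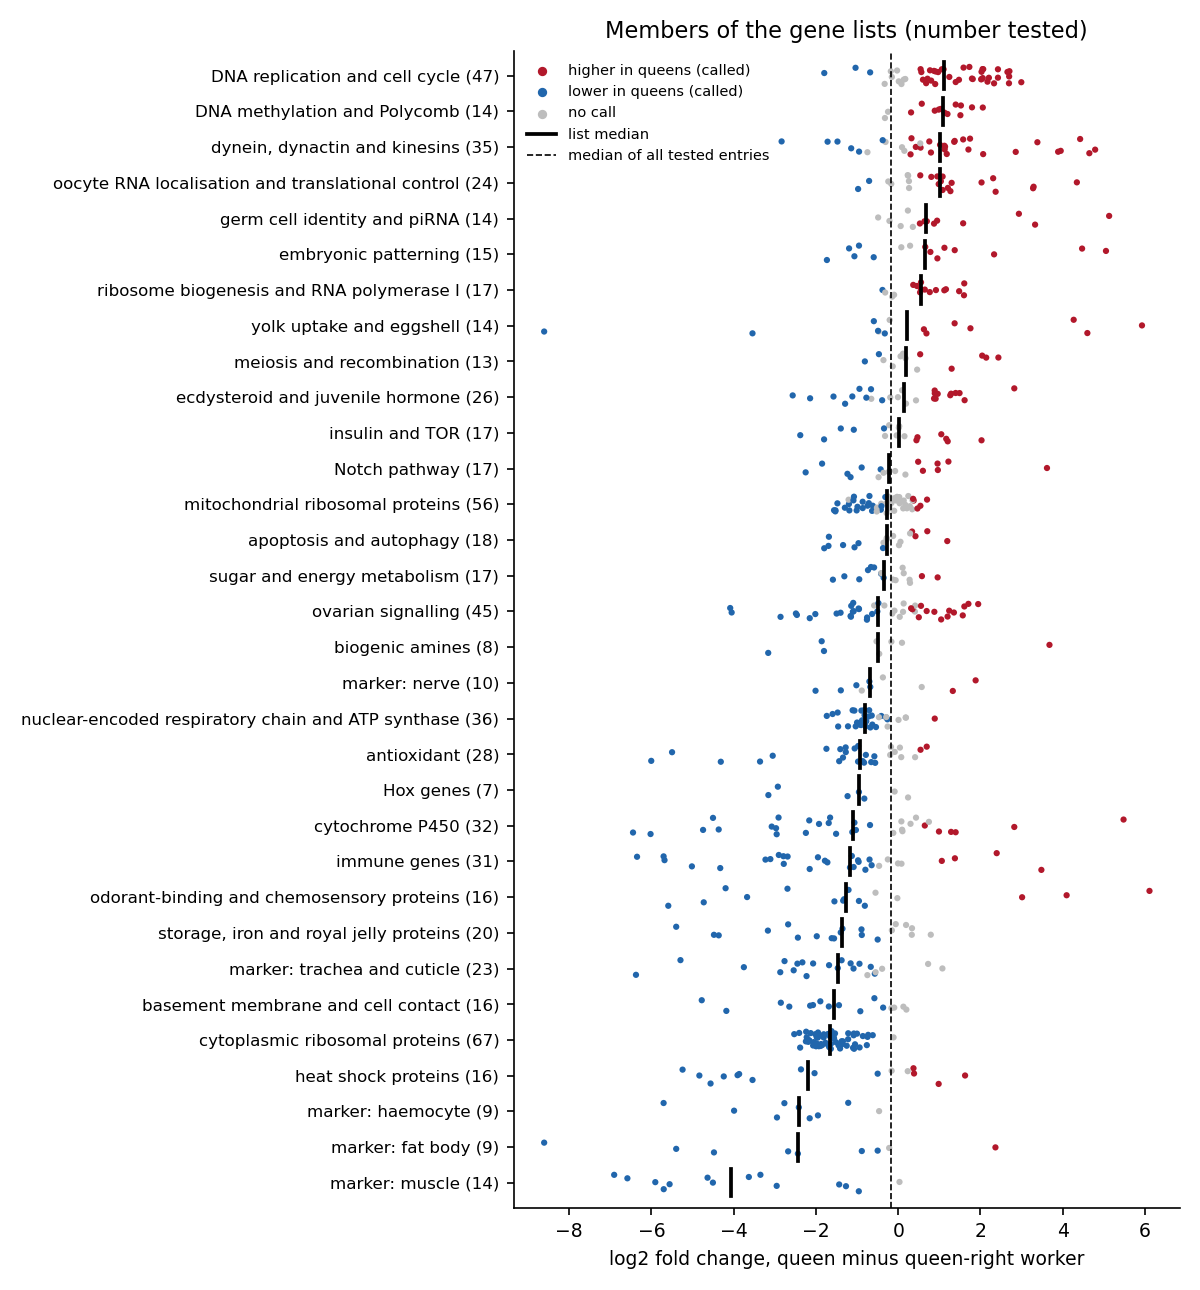
Log2 fold changes (queen minus queen-right worker) of the tested members of 32 gene lists, ordered by list median (black bars), with called members in red (higher in queens) or blue (lower), others in grey, and the median of all entries as a dashed line. DNA replication, chromatin, motor and oocyte RNA lists have medians from 1.01 to 1.103, cytoplasmic ribosomal proteins lie at −1.65, and muscle markers at −4.07.

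Genes of ecdysteroid synthesis and response went both ways. Ecdysteroids are the moulting hormones of insects and are also made by adult ovaries. Cyp314a1 (Shade), which makes the active hormone 20-hydroxyecdysone, had 235 and 238 RPKM in queens, 215 and 230.2 in queen-less workers and 48.6 and 28.99 in queen-right workers (log2 fold change 2.82, SE 0.23, adjusted p = 2.72e-05). Its gene model overlaps that of form3. The preceding enzyme CYP315A1 (Shadow) was higher from a low level (5.09 and 6.18 RPKM in queens, 1.56 and 2.25 in queen-right workers, log2 fold change 1.40), CYP302A1 (Disembodied) was lower (8.25 and 9.48 RPKM in queens, 24.9 and 22.2 in queen-right workers, log2 fold change −1.12), and CYP306A1 (Phantom) overlapped between groups (5.83 and 3.88 RPKM in queens, 4.35 and 6.21 in queen-right workers). Of the receptor pair, Ecr was higher, at 51.6 and 44.9 RPKM in queens against 48.3 and 56.2 in queen-less workers and 27.2 and 13.3 in queen-right workers (log2 fold change 1.49, SE 0.30, adjusted p = 0.00276). Its partner Usp was lower, at 16.7 and 16.2 RPKM in queens and 35.6 and 26.6 in queen-right workers (log2 fold change −0.66, SE 0.18, adjusted p = 0.0117), a call lost without queen replicate 2. Among the targets of the receptor E74 was higher (log2 fold change 1.27), E75 had no call (it was called lower in 4 settings) and Mblk-1 was lower (log2 fold change −1.29), and the nuclear receptor Hr96 had 24.0 and 24.5 RPKM in queens and 8.42 and 8.52 in queen-right workers (log2 fold change 1.61).

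Among juvenile hormone genes a binding protein and the breakdown enzyme were lower in queens. Jhe, the esterase that breaks the hormone down, had 0.36 and 0.72 RPKM in queens, 0.52 and 0.91 in queen-less workers and 9.56 and 9.23 in queen-right workers (log2 fold change −2.56, SE 0.24, adjusted p = 5.35e-05), and JHBP-1, a hormone-binding protein, was listed at 0.31 and 0 RPKM in queens and at 5.48 and 4.19 in queen-right workers. Kr-h1, the main target gene of the hormone, had 24.2 and 29.4 RPKM in queens and 25.9 and 36.8 in queen-right workers, overlapping ranges with a 95% interval of −0.44 to 0.43. Over both pathways 11 of 26 genes were higher and 9 lower. The list median was 0.14, and 0.31 over the 23 genes tested without queen-right worker replicate 1. In the main fit it lay 0.33 above that of all entries, a distance that the authors' factors cannot change. This distance was 0.72 after quantile normalization and 0.47 with the length trend removed.

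Of 17 nutrient signalling genes 6 were higher (35.3%, against 31.3% of all entries) and 5 lower (29.4%, against 40.6%). The median of 0.02 was −0.0038 with the length trend removed, −0.03 without queen replicate 1 and −0.09 without queen-right worker replicate 2. foxo, the transcription factor held back by insulin signalling, had 7.56 and 7.61 RPKM in queens, 8.44 and 8.67 in queen-less workers and 51.1 and 49.6 in queen-right workers (log2 fold change −2.38, SE 0.14, adjusted p = 6.13e-06). The peptide ILP-2 was low in all ovaries and lower in queens (2.76 and 1.39 RPKM, against 10.01 and 12.1 in queen-right workers, log2 fold change −1.80). IRS, the adaptor of the insulin receptor, had 15.2 and 14.1 RPKM in queens and 19.9 and 14.1 in queen-right workers (95% interval −0.46 to 0.50). The kinase lkb1, which activates AMPK, had 36.9 and 33.5 RPKM in queens, 29.3 and 28.8 in queen-less workers and 8.61 and 9.82 in queen-right workers (log2 fold change 2.03, SE 0.13, adjusted p = 8.4e-06). Tsc1, a brake on TOR, was higher at 1.204, and Rheb, which activates TOR, was lower at −1.40. Tor itself differed little (20.2 and 19.6 RPKM in queens, 15.7 and 17.8 in queen-right workers, log2 fold change 0.44), and its call is lost without the authors' factors and without either queen library.

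Receptors of biogenic amines, transmitters that also act on reproduction in bees, differed gene by gene. Octbeta2R, an octopamine receptor, had 29.6 and 26.8 RPKM in queens, 23.7 and 27.01 in queen-less workers and 2.19 and 1.15 in queen-right workers (log2 fold change 3.68, SE 0.23, adjusted p = 8.64e-06). The tyramine receptor TyrR showed the opposite, with 0.04 and 0.04 RPKM in queens, 0.38 and 0.50 in queen-less workers and 8.95 and 10.4 in queen-right workers (log2 fold change −3.16, SE 0.21, adjusted p = 1.08e-05). Oa1, another octopamine receptor, had 2.57 and 2.15 RPKM in queens and 14.3 and 11.8 in queen-right workers (log2 fold change −1.86), and the serotonin receptor 5-HT1 had 6.31 and 6.35 RPKM in queens and 27.1 and 29.8 in queen-right workers (log2 fold change −1.80). Dop1, a dopamine receptor, had 7.13 and 5.66 RPKM in queens and 7.89 and 9.10 in queen-right workers without a call. Of 16 genes of this list 8 passed the filter, and the enzymes Tdc1, Tdc2 and Tbh, which make tyramine and octopamine, were below 1 RPKM in at least 5 libraries each.

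Of 17 genes of the Notch pathway, through which neighbouring cells signal, 6 were higher and 6 lower. Each share was 35.3%, near the 31.3% higher and 40.6% lower of all entries. The corepressor gro (Groucho) had 124 and 129 RPKM in queens, 142 and 134 in queen-less workers and 13.4 and 8.86 in queen-right workers (log2 fold change 3.62, SE 0.19, adjusted p = 4.11e-06). Su(H), the transcription factor of the pathway, had 21.3 and 19.1 RPKM in queens and 10.03 and 8.88 in queen-right workers (log2 fold change 1.22), and the ligand Ser (Serrate) had 12.6 and 12.9 RPKM in queens and 7.59 and 6.72 in queen-right workers (log2 fold change 0.96). The receptor N had 3.86 and 3.60 RPKM in queens, 4.95 and 5.18 in queen-less workers and 5.88 and 7.31 in queen-right workers. These values do not overlap, yet N missed the threshold (log2 fold change −0.48, SE 0.19, adjusted p = 0.0544) and was called lower in 3 settings, while quantile normalization turned its sign. O-fut1, a glycosyltransferase that acts on Notch, had 2.13 and 1.76 RPKM in queens and 13.98 and 16.2 in queen-right workers (log2 fold change −2.25), and the gamma-secretase subunits aph-1, nct and pen-2 were lower while Psn, the catalytic subunit, was higher (log2 fold change 0.60).

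**Figure D5:**
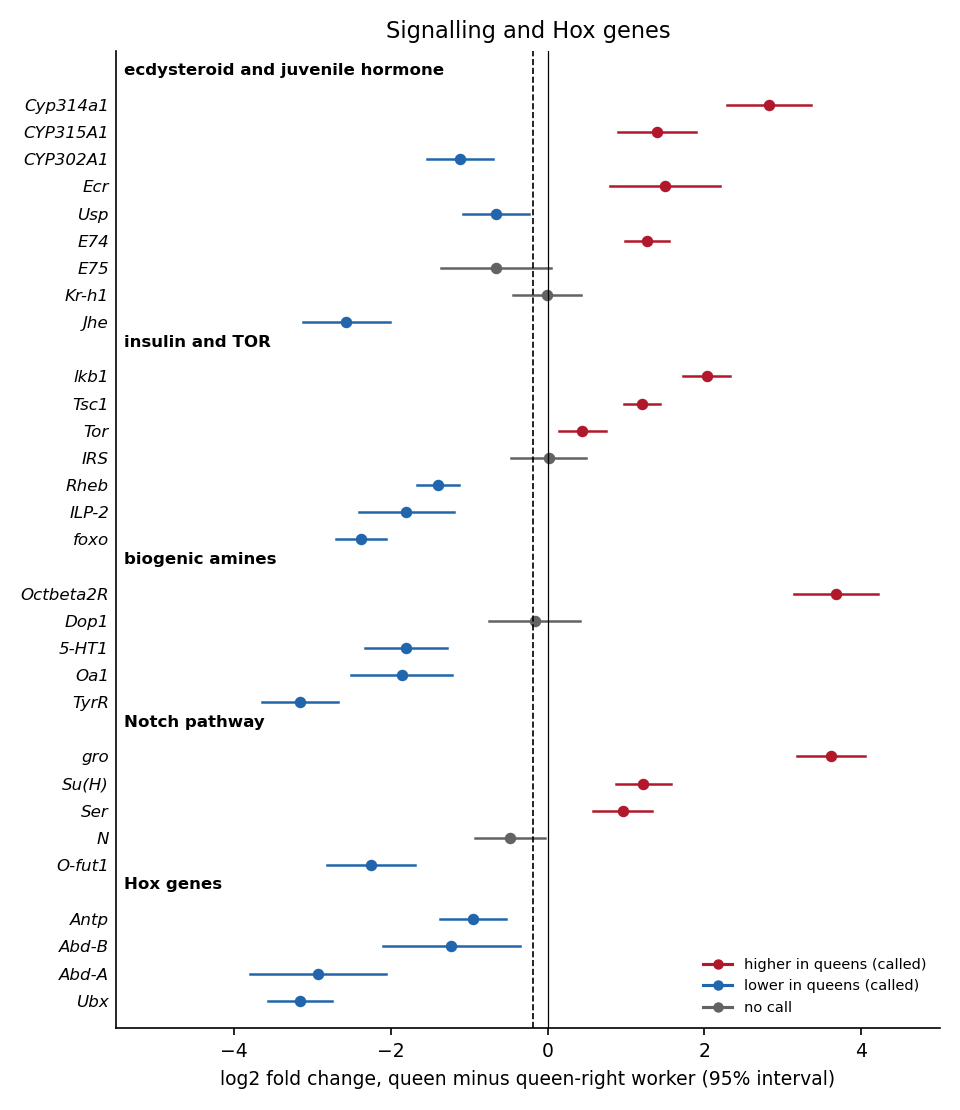
Log2 fold changes (queen minus queen-right worker) with 95% intervals from limma for genes of 4 signalling lists and the Hox genes, red when called higher in queens, blue when called lower and grey without a call, with the median of all entries dashed. Octbeta2R (3.68), gro (3.62) and Cyp314a1 (2.82) lie furthest to the right, TyrR and Ubx (both −3.16) furthest to the left.

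Other signalling genes of the ovary were lower more often than higher, 22 against 14 of 45. The share of higher members (31.1%) was that of all entries (31.3%), and the share of lower members was 48.9%, against 40.6%. After quantile normalization 16 were lower and 14 higher. mirr (Mirror), a homeobox gene of follicle cells in Drosophila, had 3.31 and 2.97 RPKM in queens, 4.5 and 4.61 in queen-less workers and 82.8 and 76.5 in queen-right workers (log2 fold change −4.08, SE 0.16, adjusted p = 1.66e-06). cv-2, which binds BMP ligands, had 3.38 and 2.17 RPKM in queens and 67.0 and 72.8 in queen-right workers (log2 fold change −4.05). The BMP ligands gbb and dpp were lower at −2.15 and −0.95, and the BMP receptor wit at −2.49. babo, the receptor of the activin branch, was higher, at 90.1 and 82.0 RPKM in queens and 36.8 and 23.7 in queen-right workers (log2 fold change 1.71), and so were the Ras scaffold cnk (log2 fold change 1.94), the GSK3 kinase sgg (log2 fold change 1.61) and tj (Traffic jam), a factor of somatic gonad cells in Drosophila (31.1 and 34.5 RPKM in queens, 12.98 and 19.4 in queen-right workers, log2 fold change 1.2).

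Genes of the basement membrane, the matrix sheet around the follicles, were lower in queens. Of 16 basement membrane and cell contact genes 12 were lower and the others not called (median log2 fold change −1.56). BM-40-SPARC, which binds collagen, had 15.1 and 13.1 RPKM in queens, 23.7 and 18.8 in queen-less workers and 296 and 329 in queen-right workers (log2 fold change −4.18, SE 0.13, adjusted p = 8.55e-07). Ndg (Nidogen) had 1.24 and 0.90 RPKM in queens and 53.5 and 76.3 in queen-right workers (log2 fold change −4.78), and the laminin chain LanA had 5.54 and 5.05 RPKM in queens and 23.1 and 37.2 in queen-right workers (log2 fold change −2.07). These genes are also made by haemocytes, fat body and muscle, whose markers were lower in the same libraries, and their part was not tested.

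Small heat shock proteins, chaperones that hold unfolding proteins, were lower in queens. All 9 of them were called, the 7 of the gene cluster summing to 44.9 and 40.8 RPKM in queens, 115.9 and 90.2 in queen-less workers and 956 and 866 in queen-right workers. The log2 fold changes of the cluster genes ran from −5.24 for LOC724449 to −2.03 for LOC724231. LOC724449 had 8.01 and 10.4 RPKM in queens, 24.9 and 22.9 in queen-less workers and 489 and 394 in queen-right workers (log2 fold change −5.24, SE 0.16, adjusted p = 7.65e-07), and LOC724231 had 3.29 and 4.84 RPKM in queens, 5.72 and 6.04 in queen-less workers and 21.5 and 23.6 in queen-right workers. The queen libraries were thus the lowest of the 3 groups in the summed level of the cluster, next to those of queen-less workers. LOC410857, outside the cluster, had 65.8 and 52.6 RPKM in queens, 93.3 and 87.4 in queen-less workers and 1717 and 983 in queen-right workers (log2 fold change −4.24). LOC412197, which the paper's methods name as l(2)efl, had 0.63 and 0.79 RPKM in queens and 34.6 and 59.2 in queen-right workers (log2 fold change −4.56). The paper elsewhere gives l(2)efl and LOC410857 the same distance from the cluster, so which of these genes is l(2)efl is unclear. Of the other chaperones of the list 4 were higher, and 2 when queen replicate 1 or queen replicate 2 was left out. Hsp90 had 830.2 and 800.5 RPKM in queens, 991 and 1004 in queen-less workers and 461 and 485 in queen-right workers (log2 fold change 0.98, SE 0.12, adjusted p = 0.000259), and Hsc70cb had 253 and 266 RPKM in queens and 89.5 and 103 in queen-right workers (log2 fold change 1.63).

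Antioxidant genes were mostly lower in queens. Of 28 antioxidant genes 20 were lower and 2 higher, with 1 higher without queen replicate 2 and 4 once the length trend was removed. GstS4, a glutathione S-transferase, had 24.1 and 14.8 RPKM in queens, 49.95 and 51.4 in queen-less workers and 1369 and 1568 in queen-right workers (log2 fold change −6.003, SE 0.20, adjusted p = 9.32e-07), and the peroxidase Tpx-4 had 18.1 and 18.2 RPKM in queens and 879 and 1121 in queen-right workers (log2 fold change −5.497). The superoxide dismutases Sod1 (172 and 187 RPKM in queens, 316 and 402 in queen-right workers) and Sod2 (11.5 and 16.2 RPKM in queens, 28.2 and 36.4 in queen-right workers) were lower by less, at −0.79 and −0.98, and the call of Sod1 is lost once the length trend is removed. Tpx-1, another peroxidase, was higher (727 and 762 RPKM in queens, 482 and 579 in queen-right workers, log2 fold change 0.69).

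Of 32 tested cytochrome P450 genes, which include the hormone enzymes above, 19 were lower and 6 higher. The CYP6AS and CYP9Q genes, families linked to the breakdown of plant compounds and pesticides in bees, were lower in 12 of 13 cases. CYP6AS4 had 4.70 and 2.52 RPKM in queens, 13.98 and 21.1 in queen-less workers and 391 and 512 in queen-right workers (log2 fold change −6.45, SE 0.27, adjusted p = 2.03e-06), and Cyp6as5 had 4.22 and 3.50 RPKM in queens and 329 and 395 in queen-right workers (log2 fold change −6.02). The exception was CYP6AS17, with 207 and 224 RPKM in queens, 169 and 194 in queen-less workers and 10.7 and 1.64 in queen-right workers (log2 fold change 5.48, SE 0.59, adjusted p = 0.000108). Members of this family are alike in sequence, and how the counting split shared reads is not known. P450 genes that passed the filter through queen-right workers alone could hardly come out higher in queens, and the CYP6AS and CYP9Q count carries the same limit. With at least 1 RPKM required in every library, 6 of 19 P450 genes were higher and 7 lower. The list median of −1.09 then became 0.09. Cyp4g11 was abundant in both, 226 and 198 RPKM in queens and 172 and 226 in queen-right workers, without a call.

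Odorant-binding and chemosensory proteins, small carriers best known from antennae, included the largest rise among named genes. Obp7 had 92.9 and 91.9 RPKM in queens, 56.4 and 42.3 in queen-less workers and 0.38 and 0.75 in queen-right workers (log2 fold change 6.11, SE 0.17, adjusted p = 6.27e-07). Obp9 had 52.1 and 43.7 RPKM in queens, 33.5 and 38.6 in queen-less workers and 3.61 and 1.33 in queen-right workers (log2 fold change 4.09), and CSP6 had 240.3 and 259.6 RPKM in queens and 28.2 and 42.6 in queen-right workers (log2 fold change 3.01). These were the 3 higher members of 16 tested, and 11 were lower. The list median was −1.26, and −1.17 over the 13 genes tested without queen-right worker replicate 2. CSP3 had 8.01 and 7.44 RPKM in queens, 9.79 and 19.1 in queen-less workers and 489 and 473 in queen-right workers (log2 fold change −5.59, SE 0.26, adjusted p = 3.1e-06), and Obp14 had 3.27 and 1.65 RPKM in queens and 124 and 82.7 in queen-right workers (log2 fold change −4.73).

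Immune genes were lower in queens for 23 of 31 and higher for 4. Def1, the antimicrobial peptide defensin, had 3.83 and 1.93 RPKM in queens, 97.7 and 85.1 in queen-less workers and 376 and 328 in queen-right workers (log2 fold change −6.35, SE 0.23, adjusted p = 1.34e-06). TEP7, a thioester protein, had 6.33 and 5.24 RPKM in queens and 334 and 488 in queen-right workers (log2 fold change −5.70), and PPO, the prophenoloxidase of melanin formation, had 0.67 and 1.13 RPKM in queens and 6.59 and 8.24 in queen-right workers (log2 fold change −1.95). The NF-kappaB factor Dl-2, of the Dorsal family that also patterns the embryo, was higher, with 18.5 and 16.2 RPKM in queens, 17.7 and 16.4 in queen-less workers and 1.47 and 0.44 in queen-right workers (log2 fold change 3.48, SE 0.28, adjusted p = 2.75e-05). Toll-1 was also higher, 5.52 and 5.25 RPKM in queens against 0.35 and 0.44 in queen-right workers (log2 fold change 2.39). Haemocyte and fat body markers, PPO and TEP7 of this list among them, were lower in the same libraries, and their part was not tested.

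Storage proteins were lower in queens, among them the hexamerins that also stand in the fat body list. Of 20 genes of storage, iron and royal jelly proteins 14 were lower and the others not called (median log2 fold change −1.38). Members that passed the filter through queen-right workers alone could hardly come out higher in queens. With at least 1 RPKM required in every library, 8 of 13 were lower, with a median of −0.89. After quantile normalization 11 were lower and 2 higher. The hexamerin Hex110 had 0.80 and 0.68 RPKM in queens, 3.72 and 9.29 in queen-less workers and 111 and 62.4 in queen-right workers (log2 fold change −5.396, SE 0.41, adjusted p = 2.07e-05), and Hex70a had 3.43 and 2.22 RPKM in queens and 98.6 and 92.9 in queen-right workers (log2 fold change −4.48). Of 9 major royal jelly protein genes 5 were lower, Mrjp1 being at 1.82 and 2.75 RPKM in queens and 31.4 and 33.8 in queen-right workers (log2 fold change −3.17), and their similar sequences make single members uncertain. The ferritin chains Fer1HCH and Fer2LCH, which store iron, were lower at −1.35 and −1.56.

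Most nuclear genes of the respiratory chain were lower in queens. Of 36 nuclear genes of the respiratory chain and ATP synthase 29 were lower and 1 higher, with a median of −0.80. With the length trend removed 21 were lower and 3 higher, with a median of −0.40, and without queen-right worker replicate 2, 2 were higher. Ndufs7, of complex I, had 18.2 and 18.2 RPKM in queens and 64.1 and 82.0 in queen-right workers (log2 fold change −1.74, SE 0.13, adjusted p = 1.71e-05), and Cox5b, of cytochrome c oxidase, had 21.3 and 17.2 RPKM in queens and 56.6 and 83.7 in queen-right workers (log2 fold change −1.60). SdhA, of complex II, was the member that was higher, 68.3 and 65.6 RPKM in queens against 34.3 and 49.2 in queen-right workers (log2 fold change 0.89). Among 17 genes of sugar metabolism 8 were lower (47.1%, near the 40.6% of all entries) and 2 higher (11.8%, against 31.3%). The list median was −0.35. UGP, which makes UDP-glucose, had 129 and 133 RPKM in queens and 416 and 500.2 in queen-right workers (log2 fold change −1.59), Tps1, of trehalose synthesis, was higher (log2 fold change 0.96), and Gapdh, of glycolysis, was not called except after quantile normalization, where it was higher at 0.36 (305 and 323 RPKM in queens, 336 and 422 in queen-right workers).

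Autophagy and cell death genes were lower for 7 and higher for 4 of 18, and the share lower (38.9%) was near that of all entries (40.6%). Atg8a, the protein that coats autophagosomes, had 188 and 182 RPKM in queens, 234 and 186 in queen-less workers and 642 and 746 in queen-right workers (log2 fold change −1.69, SE 0.13, adjusted p = 2.56e-05). BaxI1 had 183 and 176 RPKM in queens and 655 and 791 in queen-right workers (log2 fold change −1.80), and the cargo receptor ref(2)P and the kinase Atg1 were lower at −1.68 and −1.34. The 4 higher members were viaf (log2 fold change 1.19), Aut1 (log2 fold change 0.71), AIF (log2 fold change 0.42) and Atg6 (log2 fold change 0.34), and the calls of AIF and Atg6 are lost without the authors' factors and without queen replicate 1, among other settings.

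Few genes were fully switched between the groups. Both queen libraries held at least 10 RPKM and both queen-right worker libraries under 0.5 RPKM for 5 entries, of which LOC100578107 was the most abundant in queens and GMCOX2 the only member with a gene name (16.5 and 12.6 RPKM in queens, 0.45 and 0.32 in queen-right workers). The reverse held for 48 entries, among them Lys-1, a lysozyme, Unc-89, a muscle protein, NimC2, Apd-2 and CYP9Q2. nau, the MyoD homologue that drives muscle formation, was at 0.12 and 0.24 RPKM in queens, 1.15 and 0.85 in queen-less workers and 19.4 and 20.4 in queen-right workers. At least 10 RPKM in all 4 libraries was measured for 4529 entries.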

How the data were processed

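RNA-seq was carried out on pools of dissected ovaries (2 libraries each of queens, queen-less workers and queen-right workers, grouped by GEO's labels). The authors deposited RPKM for 11169 gene models, each with its scaffold, start and end as other columns, and a scaled signal (RPKM + 1 times 1 factor per library) from which their factors were recovered. The aligner, counter and genome build are not given in the sources used here. Without counts the depth was estimated only relative to queen-right worker replicate 1, over a range close to equal depth. Columns of the authors' own comparisons hold their test results and were not used, nor were 12 other per-sample columns.

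A gene entry was tested when 2 or more libraries reached 1 RPKM, on log2((RPKM + 1) times the factor) with the limma trend method (limma 3.58.1, R 4.3.3) in a fit of all 6 libraries, with Benjamini-Hochberg adjustment and a threshold of 0.05. Tables and plots were made with Python 3.11.15, numpy 2.4.6, pandas 2.3.3 and matplotlib 3.10.9, and the fit was tested on simulated data. The libraries compared, the 32 gene lists and the tests were chosen with earlier results of these data known, and list members were matched by symbol. Named were the 6 largest rises and falls among called genes with a gene name, non-overlapping libraries and at least 10 RPKM in the higher group, the 3 largest of all, each list's key genes with up to 2 called members per direction, and the 5 most abundant genes per group. Further members were added after their values were seen, and 56 entries with a shared symbol were not named. RefSeq's table for Amel_HAv3.1 matched 8962 entries and served for names only. Of the tested entries 33.6% overlap another gene model, and no strand is given, so reads of overlapping genes cannot be told apart. Alternatives were other scalings, pseudocounts and filters, a replicate block, the 4 libraries alone, limma without the trend, and leaving out each library.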

Additional observations from a re-analysis of the deposited data

How the results depend on the processing

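Over 17 alternative settings the counts of calls over all genes (total, higher and lower) stayed within 1.5 times their values. The excess of lower over higher calls was lost or nearly lost with quantile normalization, the length trend removed or 1 RPKM required in every library. The counts of several lists moved by more than 1.5 times, as given beside some of them. Of the main calls 3871 also had a log2 fold change of 1 or more, 1559 higher and 2312 lower in queens. Deviations from the group mean in same-numbered queen and queen-right worker libraries correlated across genes with r = −0.0862. The labels only number the pools, and this value cannot show whether same-numbered pools shared a colony or date. The replicate block gave 6172 calls, 2659 higher and 3513 lower. The median over all genes (a log2 fold change of −0.19) was −0.39 without the authors' factors, −0.15 with the trimmed mean of log ratios, −0.0071 with quantile normalization, 0.0086 with the length trend removed, −0.23 with a pseudocount of 0.1, −0.15 with no filter, −0.0094 with 1 RPKM required in every library, and from −0.19 to −0.068 when a library was left out. Of 213 named genes 191 had a call, 168 of them kept it in all settings that could be run, and 190 kept their sign, NHP2 being the exception (0.10 with the length trend removed). Over the scalings, pseudocounts and filters, list medians kept their sign for 25 of 32 lists. Those of Notch, insulin, amine, P450 and mitochondrial ribosomal lists turned, and those of the meiosis and hormone lists did so without the authors' factors alone, which shifted all genes alike. Among genes without a call the sign turned without the authors' factors for CYP306A1 (−0.11), IRS (−0.18), TpnCIIa (−0.17), c-mos (−0.020) and spn-E (−0.14), and with quantile normalization for Dnmt3 (0.093), Dop1 (0.32), Gapdh (0.36, called), N (0.19), RpL24 (0.64, called) and spn-E (−0.10). With the length trend removed it turned for Dop1 (0.10), Fib (0.076), IRS (−0.0038), Kr-h1 (0.45), RpL24 (0.35), exd (0.18), mRpL44 (0.34, called) and spn-E (−0.022), with the trimmed mean for Kr-h1 (0.029) and mRpL44 (0.0083), and with the median of ratios for Kr-h1 (0.020). Leaving out a library turned CYP306A1 (−0.15 to 0.34), TpnCIIa (−0.21 to 0.28), c-mos (−0.17 to 0.53), Dnmt3 (−0.83 to 0.33), Gapdh (−0.19 to 0.067), IRS (−0.25 to 0.28), Kr-h1 (−0.22 to 0.20), RpL24 (−0.23 to 0.0026), Scr (−0.052 to 0.53), exd (−0.23 to 0.056) and spn-E (−0.15 to 0.27), given as the lowest and highest values. The cause of these shifts was not tested. No absolute depth is known, so counting error could not be set against the spread between pools.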
